A study of Homo sapiens with 4 samples.

Results

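The long non-coding RNA gene SNHG26 was targeted for repression in H9 cells, an established embryonic stem cell line kept in the primed state. The SLC25 family of mitochondrial carriers was followed in them. Its members were taken as every gene of the deposited table with the biotype protein_coding and a name that starts with SLC25A and a digit, which gave 42 of 16174 genes. All cells carried dCas9-BFP-KRAB under doxycycline control, a Cas9 that binds without cutting and is joined to a fluorescent protein and a repressor domain. It had been integrated with a transposase, and the cells selected with puromycin. One arm also received 4 pooled guides against SNHG26 and the other received non-targeting control guides, and both arms were given doxycycline. RNA was taken after 2 or 3 days, with 1 library per arm and day, so the control cells differ from the others in the guides only and no library is without doxycycline. Each arm's 2 libraries therefore differ in day, nothing in the labels says that they came from separate cultures, and the p-values below measure only the spread between these 4 libraries.

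SLC25 carriers are small proteins built from a repeated unit that sit in the inner mitochondrial membrane, with a few exceptions. Many of them exchange 1 solute for another. They join the cytosol to the matrix: ATP leaves for ADP, phosphate enters for ATP synthesis, citrate leaves for lipid synthesis, and amino acids, cofactors, iron and glutathione cross by carriers of their own. Embryonic stem cells draw heavily on glycolysis, and still keep respiration, the export of citrate and mitochondrial 1-carbon metabolism running.

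Poly(A) RNA was sequenced as PCR-amplified cDNA by nanopore, and levels are in TPM, which the authors scaled within each library. The values are whole reads over genomic spans that include introns, summed over a gene's transcripts, so levels set side by side for 2 genes are per base of genomic span. Over 10 kb of span, 1 read was worth 0.653 to 0.803 TPM, and the libraries held at most 947338 to 1220265 reads. SNHG26 itself, on chromosome 7 from 22853869 to 22913785, was listed at 0 and 0.933 TPM with the SNHG26 guides on days 2 and 3, and at 2.98 and 4.03 TPM with control guides. Its log2 change was -1.69 (SE 0.58, limma adjusted p = 0.935), with -3.47 at a pseudocount of 0.1 and -0.64 at one of 5, and its exact permutation p (two-sided) was 0.333, which is as low as 2 libraries against 2 can go. Of 9 markers of primed stem cells, 8 were listed and 7 reached 1 TPM in every library, with POU5F1 at 1050 to 1212 TPM and ZIC2 at 0. Of markers of other lineages, germ cells had 1 of 3 listed, at 0, neuroectoderm 0 of 2, mesendoderm 2 of 4, summing to at most 1.98 TPM, and liver and brown fat 2 of 3, summing to 0.685 to 7.78 TPM.

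The promoters of the phosphate carrier and of the 3 ADP/ATP carriers that lead the family, and of the glutathione carrier SLC25A39, are shown because these 5 genes hold most of the family's signal. Each stretch comes from the RefSeq promoter table (build GRCh38.p14), runs 5′ to 3′ in the direction of the gene and stops where the gene begins in the deposited table. Capitals mark matches to GCGCA and GCGC with any 1 base between them (the NRF1 motif), GGGCGG (the SP1 motif), CCGGAAG (the ETS motif) and TATAAA (the TATA box), searched on both strands, and overlapping matches run together. SLC25A3 is on the plus strand, at chr12:98593436-98593590. SLC25A5 and SLC25A4 are also on the plus strand, at chrX:119468194-119468421 and chr4:185143016-185143265. SLC25A6 and SLC25A39 are on the minus strand, at chrX:1392114-1392363 and chr17:44324871-44325073.
SLC25A3: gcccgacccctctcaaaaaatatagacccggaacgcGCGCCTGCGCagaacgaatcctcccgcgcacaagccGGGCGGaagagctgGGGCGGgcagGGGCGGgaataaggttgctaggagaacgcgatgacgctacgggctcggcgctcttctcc
SLC25A5: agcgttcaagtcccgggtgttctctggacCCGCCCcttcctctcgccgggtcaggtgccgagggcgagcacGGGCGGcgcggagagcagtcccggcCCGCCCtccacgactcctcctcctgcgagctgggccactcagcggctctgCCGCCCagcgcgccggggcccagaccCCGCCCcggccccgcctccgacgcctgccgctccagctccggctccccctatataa
SLC25A6: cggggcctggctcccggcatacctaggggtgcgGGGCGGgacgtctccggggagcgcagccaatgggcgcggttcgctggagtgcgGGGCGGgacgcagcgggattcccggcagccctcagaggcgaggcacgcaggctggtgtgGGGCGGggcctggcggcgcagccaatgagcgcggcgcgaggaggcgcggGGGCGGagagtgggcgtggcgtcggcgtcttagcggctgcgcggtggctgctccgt
SLC25A4: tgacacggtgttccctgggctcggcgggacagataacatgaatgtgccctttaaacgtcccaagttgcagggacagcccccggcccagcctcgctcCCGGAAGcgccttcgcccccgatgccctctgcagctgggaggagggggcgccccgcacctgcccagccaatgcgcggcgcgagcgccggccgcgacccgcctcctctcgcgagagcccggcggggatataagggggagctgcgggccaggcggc
SLC25A39: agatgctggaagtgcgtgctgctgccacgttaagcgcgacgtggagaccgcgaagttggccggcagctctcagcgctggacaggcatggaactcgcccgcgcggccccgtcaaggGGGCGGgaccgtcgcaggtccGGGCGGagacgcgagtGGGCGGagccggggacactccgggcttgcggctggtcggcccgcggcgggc
SLC25A3 was the only gene of these 5 with an NRF1 match. SLC25A5, SLC25A6 and SLC25A39 held 5, 4 and 3 SP1 matches in the stretches shown, and SLC25A4 held none of those but an ETS match. A TATA match of SLC25A5 runs past the end of its stretch.

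Of the 42 genes, 36 had an entry in the promoter table. Over the 250 bases before the RefSeq start, their median GC content was 66.0%, against 58.0% for all 27305 promoters and 64.8% for the 11147 of protein-coding genes in the TPM table. The SP1 motif was present in 26 of 36 (72.2%), against 42.3% of all promoters and 67.1% of the protein-coding ones. NRF1 letters were present in 2 (5.56%), those of SLC25A3 and SLC25A11, against 5.53% and 9.95%. An ETS match was found in 7 (19.4%), against 8.82% and 15.2%, and a TATA match in 3 (8.33%), against 11.1% and 5.61%. The 16 promoters of members with a mean of at least 1 TPM had a median GC content of 72.2% and a median of 27.5 CpG, and the 20 of lower members 62.2% and 16.5. These letter counts are a description, and no binding was measured.

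A few carriers made up nearly all of the family's signal. The summed level was 1656 and 1909 TPM in the SNHG26 guide libraries of days 2 and 3 and 1623 and 1575 TPM in the control libraries, or 0.165% to 0.200% of the listed TPM. This gave a mean of 1783 ± 179 TPM (SD, n = 2) with SNHG26 guides and 1599 ± 33.7 TPM (SD, n = 2) with control guides. In bulk RNA, fewer cells of a type and less RNA per cell cannot be told apart. The 6 highest genes held 95.1% of the summed mean and the 7 highest 97.6%. Of the 42 genes, 23 were above 0 in every library, 14 in some and 5 in none, and 18 had a mean of at least 1 TPM.

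**Figure D1:**
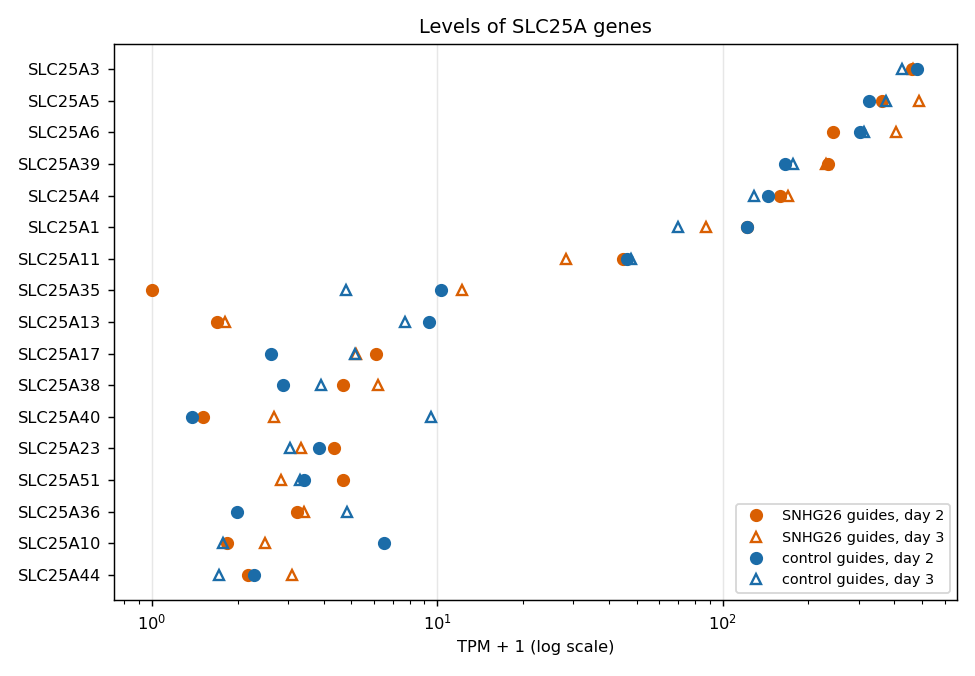
TPM + 1 on a log axis for 17 of the SLC25A genes whose mean reached 1 TPM, in order of the mean, with each library as a point (orange, SNHG26 guides; blue, control guides; circles, day 2; open triangles, day 3). SLC25A3, SLC25A5, SLC25A6, SLC25A39, SLC25A4 and SLC25A1 lie above 60 TPM in every library, SLC25A11 lies at 27.2 to 46.9 TPM, and every other gene shown stays below 12 TPM.

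SLC25A3, the phosphate carrier that supplies ATP synthase (chromosome 12, 98593591 to 98606379), was highest by its mean over the 4 libraries, and steadiest. It stood at 459 and 464 TPM with SNHG26 guides on days 2 and 3, and at 479 and 426 TPM with control guides. The control values enclose both others, and the log2 guide change was 0.03 (SE 0.14). At least 48.7 to 58.2 and at most 762 to 910 reads lie behind each value.

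The 3 ADP/ATP carriers expressed here export ATP from the matrix in exchange for ADP. By mean level SLC25A5 and SLC25A6 came next, and SLC25A4 came after SLC25A39. SLC25A5, the carrier typical of dividing cells (chromosome X, 119468422 to 119471396), was at 362 and 487 TPM with SNHG26 guides and at 325 and 373 TPM with control guides. SLC25A6 (chromosome X, 1386152 to 1392113, in the pseudoautosomal region) was at 244 and 405 TPM against 301 and 312 TPM. SLC25A4, the isoform typical of heart and muscle (chromosome 4, 185143266 to 185150382), was at 158 and 169 TPM against 144 and 128 TPM. In each library SLC25A5 stood above SLC25A6 and SLC25A6 above SLC25A4 in TPM, which is per base of span. By reads the order of SLC25A5 and SLC25A6 was the reverse. The lower bound for SLC25A6 (159 to 294 reads) exceeded the upper bound for SLC25A5 (120 to 222 reads) in each library. SLC25A5 and SLC25A6 overlapped in range, while the highest SLC25A4 value lay below the lowest of SLC25A6. The 3 genes are close in sequence and have processed pseudogenes, and how the authors placed reads that match several copies is not given in the sources used here. Among heart and muscle markers, 2 of 5 were listed: TNNT2 at 0.350 to 1.17 TPM, and ACTC1 at 56.4 and 19.7 TPM with SNHG26 guides on days 2 and 3 and at 75.6 and 15.3 TPM with control guides. Whether cells of that kind contributed SLC25A4 was not tested.

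SLC25A4 reads lay on a pair of spans, and the TPM values can be split into them exactly. With SNHG26 guides, 56 and 73 reads on days 2 and 3 lay on the 3964-base span of transcript SLC25A4-202, and 54 and 53 on the full span of 7117 bases. With control guides, 47 and 48 lay on the short span and 43 and 49 on the full one. GENCODE release 29 types SLC25A4-202, which ends 3141 bases before the listed end of the gene, as a target of nonsense-mediated decay. The short span's share was 50.9% (exact 95% binomial interval 41.2 to 60.6) and 57.9% (48.8 to 66.7) with SNHG26 guides, and 52.2% (41.4 to 62.9) and 49.5% (39.2 to 59.8) with control guides. Each library's share lay inside the intervals of the other 3, so a difference in transcript use was not detectable at this depth. The intervals cover counting error only, since amplified reads without molecular identifiers are not independent molecules. Because a read on the short span is worth more TPM, that transcript gave 81.3 to 120 TPM and the full span 46.2 to 55.3 TPM.

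**Figure D2:**
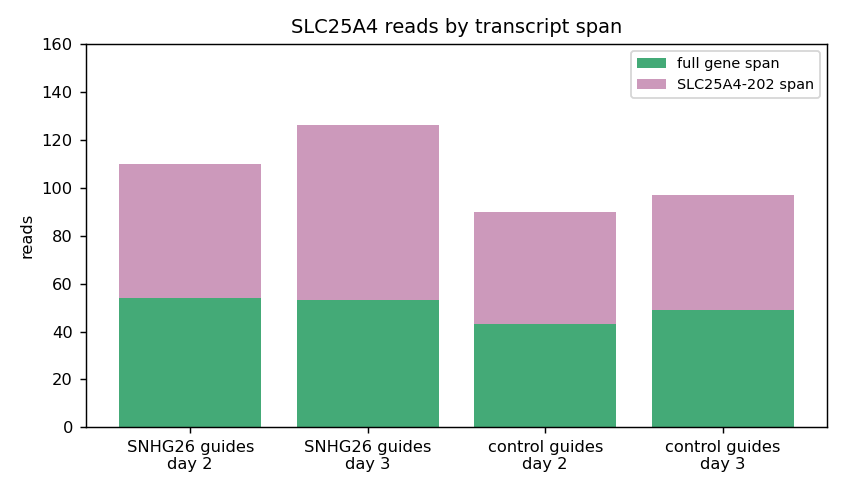
Reads of SLC25A4 in each library, stacked by the span they were counted on (green, full gene span; pink, the span of SLC25A4-202). The totals are 110, 126, 90 and 97 reads, and the pink part is near the size of the green one in each bar.

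Of the remaining adenine nucleotide carriers, which exchange ATP-Mg for phosphate under calcium control, SLC25A23 was at 2.04 to 3.33 TPM and SLC25A24 at 0.333 to 0.762 TPM. SLC25A25 was at 0.164 to 0.734 TPM, which is 1 read in every library.

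SLC25A39, which imports glutathione (chromosome 17, 44319625 to 44324870), was at 234 and 229 TPM with SNHG26 guides on days 2 and 3 and at 164 and 176 TPM with control guides. Both SNHG26 guide libraries were above both control libraries, at 231 ± 3.59 TPM (SD, n = 2) against 170 ± 8.27 TPM (SD, n = 2). At least 29.8 to 51.0 and at most 107 to 184 reads lie behind these values. Its relative SLC25A40, which also carries glutathione, was far lower, at 0.511 and 1.68 TPM against 0.375 and 8.52 TPM, and its highest value is taken up below.

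Among carriers of di- and tricarboxylates, SLC25A1, the citrate exporter (chromosome 22, 19175581 to 19178739), was at 120 and 86.2 TPM with SNHG26 guides and at 121 and 68.9 TPM with control guides. Both day 3 libraries were below both day 2 libraries. The bounds on its reads run from 6.63 to 10.7 at the least and from 32.4 to 52.2 at the most. SLC25A11 (chromosome 17, 4937130 to 4940053) is the oxoglutarate and malate carrier of the malate-aspartate shuttle. It was at 43.8 and 27.2 TPM against 45.1 and 46.9 TPM. Its reads lie between lower bounds of 1.68 to 2.82 and upper bounds of 12.2 to 20.4. The values of SLC25A10, a dicarboxylate carrier, are matched by 1, 2, 6 and 1 reads near the full span, not shown to be the only split. The 6 reads, 5.52 TPM, lay with control guides on day 2. SLC25A21, an oxodicarboxylate carrier, reached 0.0272 TPM. SLC25A1 lies wholly opposite the long non-coding gene LINC01311, and whether the counting used strand is not given in the sources used here. LINC01311 was listed at 5.53 TPM in the SNHG26 guide library of day 3 and at 0 in the rest.

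The carriers of vitamins, cofactors and nucleotides were low. SLC25A17, a carrier of CoA, FAD and NAD in peroxisomes, was at 5.07 and 4.19 TPM with SNHG26 guides on days 2 and 3 and at 1.60 and 4.15 TPM with control guides. SLC25A51, which imports NAD, was at 1.84 to 3.67 TPM, and SLC25A36, a pyrimidine nucleotide carrier, at 0.978 to 3.82 TPM. Below a mean of 1 TPM were SLC25A42 (CoA), SLC25A32 (folate and FAD), SLC25A26 (S-adenosylmethionine), SLC25A33 (pyrimidine nucleotides) and SLC25A16, with means of 0.0954 to 0.877 TPM. SLC25A33 was at 3 reads in every library.

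Amino acid carriers were also low. SLC25A38, which brings glycine to the matrix for haem synthesis, was at 3.66 and 5.17 TPM with SNHG26 guides and at 1.88 and 2.89 TPM with control guides, which is 7, 11, 3 and 6 reads. SLC25A44, a carrier of branched-chain amino acids, was at 0.719 to 2.10 TPM. SLC25A13 is the aspartate and glutamate carrier called citrin, and is described below. SLC25A12, its paralog aralar, was at 0 to 0.178 TPM, although its gene shares 61239 bases with HAT1 on the opposite strand. The ornithine carrier SLC25A15 and the glutamate carrier SLC25A22 were each above 0 in 1 library, at 0.568 and 0.934 TPM.

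The acylcarnitine carrier SLC25A20, needed for fatty acid oxidation, was at 0 to 0.869 TPM. SLC25A37, the iron carrier of red blood cell precursors, was at 0.151 to 0.588 TPM. Of 4 erythroid markers, HBA1 was listed, at 25.9 and 23.2 TPM with SNHG26 guides and at 9.53 and 0 TPM with control guides. On 1 kb of span, 1 read was worth 6.53 to 8.03 TPM, so a short gene reaches such values on few reads. Read numbers of HBA1 were not worked out, and its part in the SLC25A37 values was not tested. SLC25A46, in the outer membrane, was at 0.307 to 1.04 TPM. The uncoupling protein relatives SLC25A14 and SLC25A30 reached 2.06 and 0.291 TPM. Of the members grouped here as having no settled substrate, SLC25A35 was at 0 and 11.2 TPM against 9.26 and 3.77 TPM, and the day 2 control value is 1 read on the 867-base span of transcript SLC25A35-206. SLC25A53, SLC25A48 and SLC25A43 reached 0.553, 0.400 and 0.146 TPM.

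The 5 genes listed at 0 in every library were SLC25A18 (glutamate), SLC25A27 (an uncoupling protein relative), SLC25A28 (iron), SLC25A29 (basic amino acids) and SLC25A45. On their listed spans, a floor of 3 reads per library allows up to 0.711 to 0.875 TPM for SLC25A18, and up to 2.30 to 2.83 TPM for SLC25A45, the shortest of them. The names SLC25A2, SLC25A31, SLC25A34, SLC25A41, SLC25A47 and SLC25A52 were not analysed here.

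Most of these low values rest on very few reads. Of the 121 values above 0 over the 42 genes and 4 libraries, 67 could be turned into a read number from the spans of GENCODE transcripts, and 44 of those were at most 3 reads. For 69 of the 121, even the upper bound was under 10 reads. Since TPM is per span, the order by TPM is not the order by the upper bound on reads: SLC25A35, 8th by TPM, was 18th by that bound. The bound can be far off, since for SLC25A13 it was 210 and 202 reads in the control libraries, where the split given below has 17 and 9.

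**Figure D3:**
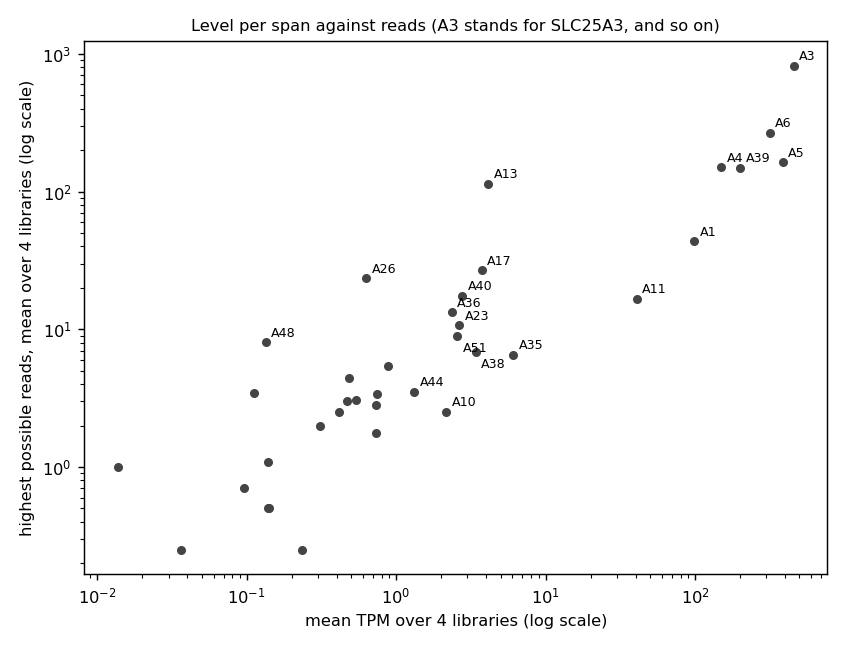
Mean TPM over the 4 libraries against the mean upper bound on reads, both on log axes, for 36 of the SLC25A genes above 0, each a point. SLC25A3 is at the top right with a mean of 457 TPM and at most 822 reads, while SLC25A17 and SLC25A35, at means of 3.75 and 6.06 TPM, have upper bounds of 26.8 and 6.55 reads.

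The guides were compared by limma on log2(TPM + 1) over the 8274 genes whose mean reached 1 TPM. No SLC25A gene and no other gene passed a Benjamini-Hochberg adjusted p of 0.05, so 0 of 18 members and 0% of all genes tested were called. At an unadjusted p under 0.05, 1 of 18 members was counted, SLC25A13, beside 337 of 8274 genes (4.07%). SLC25A13 passed the filter on the mean only through the control arm, where it was high, so this count is a description. In 4 of 18 members (SLC25A39, SLC25A4, SLC25A38 and SLC25A17) both SNHG26 guide libraries were above both control libraries, beside 16.1% of all genes tested. In 2 of 18 (SLC25A13 and SLC25A11) both were below, beside 13.2%. The median log2 change of the 18 members was 0.13, with 0.14 on day 2 and 0.22 on day 3, beside 0.04 over all genes tested, with 0.00 and 0.03. Of the members, 13 changes were above 0 and 5 below, and 53.3% of all genes were above 0. That share of all genes was larger at higher levels. It was 56.9% at a mean of at least 5 TPM and 63.3% where the mean upper bound on reads was at least 50. With median ratio scaling, 11 members were above 0 and 7 below, beside 50.8% of all genes.

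**Figure D4:**
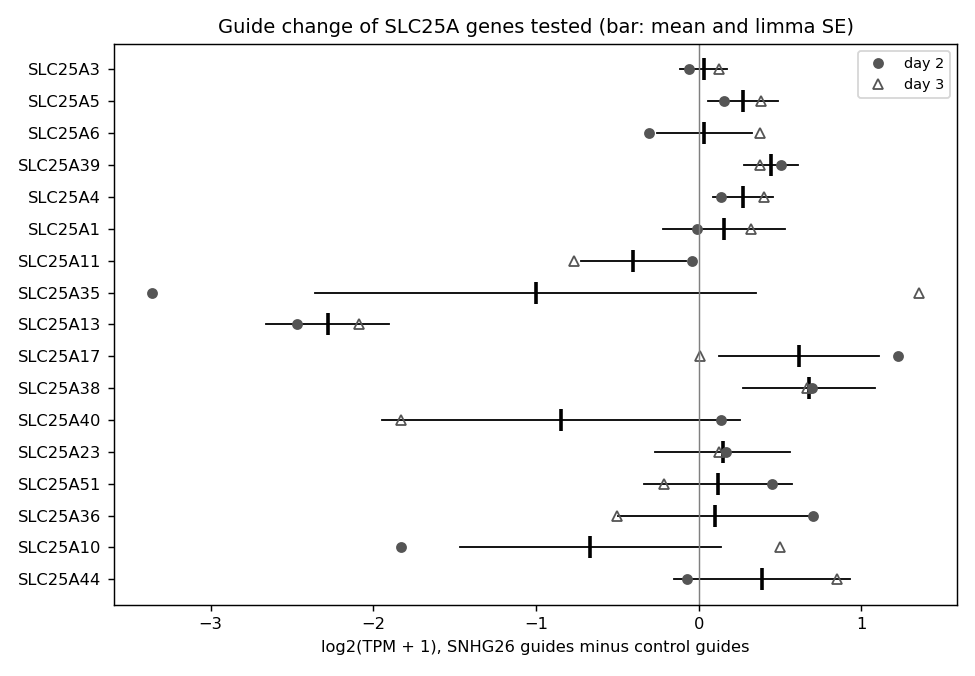
Difference in log2(TPM + 1) between SNHG26 guides and control guides for 17 of the SLC25A genes tested, in order of mean level (circle, day 2; open triangle, day 3; black mark and line, mean and limma standard error). Among the means, SLC25A13 lies farthest from 0 at -2.28, SLC25A39 lies above 0 on both days, and several genes, among them SLC25A35 with -3.36 and 1.35, have days on opposite sides of 0.

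For SLC25A39, the glutathione carrier, the log2 change was 0.44 (SE 0.16), with 0.51 on day 2 and 0.38 on day 3. Its unadjusted p was 0.0523 and its limma adjusted p 0.935, so the difference did not pass the threshold. SLC25A4 had a change of 0.27 (SE 0.18), with 0.14 and 0.40 on the 2 days. SLC25A5 had the same mean change, 0.27 (SE 0.21), but its day 2 value with SNHG26 guides lay below its day 3 control value, and the change was 0.057 without the day 3 SNHG26 guide library and 0.48 without that of day 2. The glycine carrier SLC25A38 had a change of 0.68 (SE 0.41) and SLC25A17 one of 0.62 (SE 0.49), with 1.22 on day 2 and 0.01 on day 3. Without the day 2 control library the change of SLC25A17 was 0.12, and without the day 3 one it was 1.11. SLC25A11 had a change of -0.40 (SE 0.32), with -0.04 on day 2 and -0.76 on day 3. For these 6 genes the adjusted p was 0.935 each.

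The largest guide change of the family, that of SLC25A13 (chromosome 7, 96120220 to 96322147), turned direction when 1 possible short read was left out of each control library. It was listed at 0.686 and 0.809 TPM with SNHG26 guides on days 2 and 3 and at 8.34 and 6.71 TPM with control guides. The log2 change was -2.28 (SE 0.38), with an unadjusted p of 0.00338 and a limma adjusted p of 0.395. The SNHG26 guide values are matched by 19 and 25 reads near the full span of 201928 bases. The control values are matched by 16 and 8 reads near the full span, which give 0.637 and 0.266 TPM, plus 1 read on the 1043-base span of the annotated transcript SLC25A13-208 (96120956 to 96121998), which is worth 7.70 and 6.44 TPM. This split is the simplest that matches the control values and not the only one, and the bounds alone allow 1.08 to 210 reads on day 2 and 1.04 to 202 on day 3. On the full-span reads of this split the log2 change was 0.28, with 0.04 on day 2 and 0.51 on day 3, so the direction turned. This setting was chosen after the data had been seen, takes reads from the high group only and has no test.

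SLC25A40, which was looked at after its values had been seen, had the same pattern in 1 library. Its control value of 8.52 TPM on day 3 is matched by 4 reads on the full span of 42793 bases plus 1 shorter read. That read would lie on the 851-base span of SLC25A40-206 and be worth 7.89 TPM. This split was not shown to be the only one, and the bounds alone allow 1.08 to 54.3 reads. Under this split the 4 libraries held 3, 11, 2 and 5 reads. The log2 guide change was -0.85 (SE 1.10) as listed and 0.43 on the full-span reads of this split. Without the day 3 control library it was 0.55. The day 2 control value of the CoA carrier SLC25A42, 3.36 TPM, was likewise 2 reads on the 4784-base span of SLC25A42-203, against 1 read near the full span with SNHG26 guides on day 2 and 0 in the other 2 libraries.

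**Figure D5:**
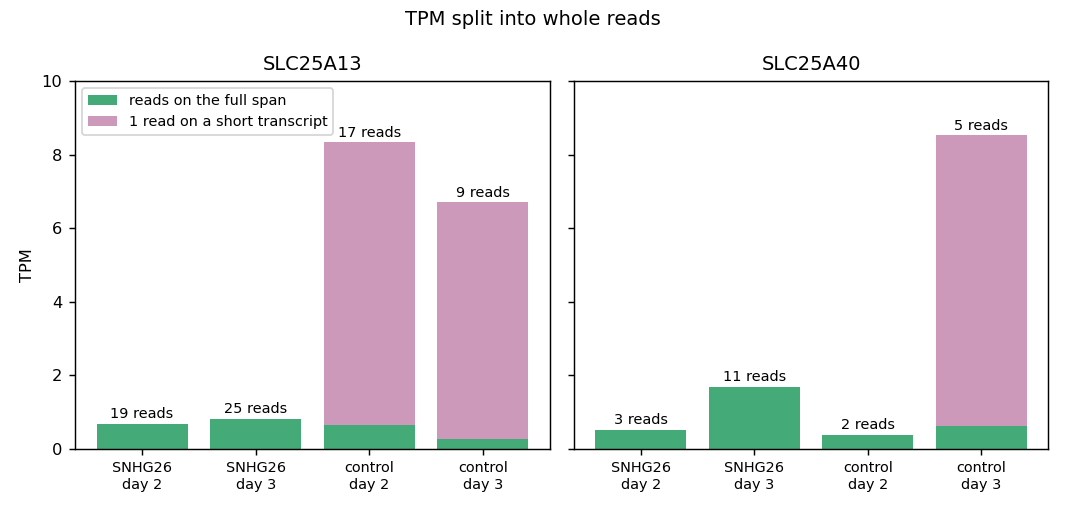
TPM of SLC25A13 and SLC25A40 in each library, stacked into reads on the full span (green) and 1 read on a short annotated transcript (pink), with the number of reads above each bar. Under this split, which was not shown to be the only one for the tall bars, those bars (8.34 and 6.71 TPM, and 8.52 TPM) are mostly pink.

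The days were compared in the same way, day 3 against day 2 with 1 library of each arm on either side. Again 0 of 18 members passed the adjusted threshold in limma, beside 3 of 8274 genes (0.0363%). At an unadjusted p under 0.05, 1 of 18 was counted, SLC25A1, beside 547 genes (6.61%), and with the arm as a replicate block or without a trend 0 of 18 were. Both day 3 libraries were above both day 2 libraries in 4 of 18 members (SLC25A5, SLC25A6, SLC25A36 and SLC25A40), beside 17.1% of all genes. They were below in 3 (SLC25A1, SLC25A23 and SLC25A51), beside 18.4%. SLC25A40 passed the filter on the mean only through day 3, where it was high, so the count of 4 is a description. The median log2 change was 0.04, with 0.09 in the SNHG26 arm and -0.00 in the control arm, beside 0.01 over all genes. The citrate exporter SLC25A1 had a change of -0.64 (SE 0.19, unadjusted p = 0.0309, limma adjusted p = 0.661), with -0.48 in the SNHG26 arm and -0.80 in the control arm. SLC25A5 had a change of 0.31 (SE 0.19) and SLC25A6 one of 0.39 (SE 0.21), with 0.73 in the SNHG26 arm and 0.05 in the control arm. Leaving out 1 library moved SLC25A5 to between 0.12, without the day 3 SNHG26 guide library, and 0.51, without the day 3 control library, and SLC25A6 to between 0.20 and 0.58 in the same order. ACTC1, the muscle marker above, differed between days more than between arms, and its part in the day values was not tested.

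Genes that work beside the carriers were read from the same limma fit, and none was called in the guide comparison (lowest adjusted p 0.935 in each list). The counts of higher genes in these lists stand beside 53.3% of all genes tested, and 63.3% of those with a mean upper bound of at least 50 reads. Carriers under other names had 3 genes tested, of which 2 were higher and 1 lower, with a median log2 change of 0.31. MTCH2, an insertase of the outer membrane, was at 41.6 and 44.5 TPM against 28.4 and 42.0 TPM, and UCP2, an uncoupling protein, at 20.5 and 22.4 TPM against 28.3 and 18.7 TPM. In the machinery that imports carriers, 12 of 15 genes tested were higher and 3 lower, with a median of 0.07. TIMM10, a chaperone of the space between the membranes, was at 209 and 295 TPM against 176 and 199 TPM, and TIMM13 at 506 and 687 TPM against 471 and 456 TPM. TIMM22, the pore of the carrier translocase, was at 7.99 to 17.8 TPM in all.

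ATP synthase subunits, which use the phosphate and ADP that SLC25A3 and the ADP/ATP carriers bring in, were higher in 16 of 17 and lower in 1, with a median log2 change of 0.12. In 7 of the 17 both SNHG26 guide libraries were above both control libraries, beside 16.1% of all genes tested. Between days the same list was higher on day 3 in 15 of 17, with a median of 0.12, and 6 had both day 3 libraries above both day 2 libraries, beside 17.1% of all genes. ATP5F1E was at 154 and 170 TPM against 112 and 119 TPM, a change of 0.48 (SE 0.18). The citrate cycle and malate-aspartate shuttle had 13 of 19 higher and 6 lower, with a median of 0.19, and IDH3G was at 9.32 and 9.84 TPM against 16.0 and 14.8 TPM. Among mitochondrial 1-carbon, glutamine and proline enzymes, 9 of 11 were higher and 2 lower, with a median of 0.13. SHMT2, the serine hydroxymethyltransferase that feeds the glycine and folate pools, was at 123 and 102 TPM against 76.3 and 75.3 TPM, a change of 0.56 (SE 0.21). Of 7 other transporters of the inner membrane, 1 was higher and 6 lower, with a median of -0.42. The tally covers the 7 of 15 listed genes that passed the filter on the mean. The sideroflexin SFXN5, at 0.441 and 0.457 TPM against 2.69 and 2.62 TPM, passed it only through the control arm. The pyruvate carrier subunit MPC1 was at 1.61 and 2.53 TPM against 4.00 and 2.97 TPM. Regulators of mitochondrial biogenesis had 3 higher and 3 lower, with a median of -0.02. The day comparison of the same lists had no called gene, with lowest adjusted p values of 0.631 to 0.760.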

How the data were processed

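Per the file headers, the authors' deposited table holds TPM per gene in 1 column per library and a column of gene length that was not used for the tests. Reads were aligned with minimap2 2.24-r1122 and the build was GRCh38, per the submitters' processing notes. The counting tool, annotation release and handling of strand are not given in the sources used here. In genes of under 400 bases, all 149, 146, 148 and 156 values above 0 were whole reads over the listed span within 0.0001 read, which set the value of 1 read in each library. Member values were then split into whole reads on the spans of GENCODE release 29 transcripts, which matched all 42 genes by name and 33 of them by a start or an end, so the splits assume these spans. A value got a read number where a single split existed within 1e-07 of it, where it lay within 0.1 read of a whole number on the full span, or where 1 short read plus full-span reads came within 0.01 read. Other values have bounds only, and the split was tested on simulated data.

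Changes are differences of log2(TPM + 1), so small levels are compressed. Every gene whose mean reached 1 TPM was tested two-sided with limma 3.58.1 in R 4.3.3 (eBayes with a trend), Benjamini-Hochberg adjustment over 8274 genes and a threshold of 0.05. On simulated data this test made more false calls than its threshold promises, so the few calls and the unadjusted counts are to be read with caution. A filter on the mean lets a gene pass through 1 high library. Libraries pair across arms by the day in the labels, and the deviations of same-day libraries had a correlation of 0.0464 over 8274 genes. The members, gene lists and tests were chosen with earlier results of these data known. Genes named with full values are the 12 with the highest mean, the ADP/ATP and phosphate carriers, any called member and, among those with a mean of at least 5 TPM, up to 4 each way with the largest change of 1 sign in both pairs. Values of 1 of these genes are not reported here, though the counts and medians include it. SLC25A40 and SLC25A42 were added after their values were seen. Examples from the other lists were likewise chosen with values in view. Alternatives were other pseudocounts, filters and scalings, eBayes without a trend, the day or arm as a replicate block, leaving out each library, and full-span reads only, the last chosen after seeing the data.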

Additional observations from a re-analysis of the deposited data

Results flagged for a closer look

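For several of the named carriers the sign of the change was not the same on both days or in both arms. With 1 library per arm and day, no residual degree of freedom is left, so none of these differences was tested. All values are differences of log2(TPM + 1).

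The guide change of SLC25A3, the phosphate carrier, was -0.06 on day 2 and 0.12 on day 3. That of SLC25A6, an ADP/ATP carrier, was -0.31 and 0.37, and that of the citrate exporter SLC25A1 was -0.01 and 0.32. SLC25A35 went from -3.36 on day 2, where its SNHG26 guide library was listed at 0, to 1.35 on day 3.

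The change from day 2 to day 3 was -0.17 in the control arm and 0.02 in the SNHG26 arm for SLC25A3, and -0.17 and 0.09 for SLC25A4. It was 0.10 in the control arm and -0.03 in the SNHG26 arm for SLC25A39, and 0.056 and -0.67 for SLC25A11. SLC25A35 had -1.10 in the control arm and 3.61 in the SNHG26 arm. SLC25A13 had -0.28 and 0.10, and SLC25A17 had 0.98 and -0.23 in the same order. On full-span reads alone, the day change of SLC25A13 was -0.13 over both arms.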

How the results depend on the processing

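No SLC25A gene and no other gene was called for the guides in any setting run. For the days, no SLC25A gene was called in any setting, and the 3 called genes of the table became 0 at pseudocounts of 0.1 and 5, without a filter, at a mean of at least 50 reads, with quantile normalization, without a trend, with the replicate block, and without each library in turn (0 to 0). The replicate block left the medians at 0.13 for the guides and 0.04 for the days and changed no other call at the adjusted threshold (at an unadjusted p under 0.05, SLC25A1 was lost for the days), and SNHG26 stayed at -1.69 with it (limma adjusted p = 0.908). Without each library in turn, SNHG26 ranged from -2.16 to -1.21 (-3.47 and -0.64 at pseudocounts of 0.1 and 5), the guide median from 0.097 to 0.16 and the day median from 0.014 to 0.19, highest without the day 3 control library. The guide median was 0.068 at a pseudocount of 5. The day median turned to -0.0028 at a mean of at least 5 TPM or a mean upper bound of at least 50 reads. With quantile normalization it was -0.036.

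Over all settings SLC25A39 kept a guide change of 0.37 to 0.49 (limma adjusted p 0.572 to 0.994), SLC25A4 one of 0.18 to 0.36 and SLC25A11 one of -0.74 to -0.069. The guide change turned for SLC25A3 (-0.0073) and SLC25A6 (-0.0049) with median ratio scaling, and for SLC25A6 with quantile normalization (-0.035). It also turned for SLC25A13 (0.28) and SLC25A40 (0.43) on full-span reads, a setting that leaves out 1 possible read in each high library. Without each library in turn, it ranged from -0.052 to 0.12 for SLC25A3, -0.33 to 0.40 for SLC25A6, -0.25 to 0.56 for SLC25A1 (-0.082 without day 2 SNHG26 guides), -2.81 to 0.80 for SLC25A35 and -2.24 to 0.55 for SLC25A40. The day change of SLC25A39 turned with quantile normalization (-0.034). Without each library in turn, the day change ranged from -0.22 to 0.29 for SLC25A39, -0.24 to 0.16 for SLC25A4, -0.69 to 0.076 for SLC25A11, -0.43 to 2.93 for SLC25A35, -1.32 to 1.15 for SLC25A13 and -0.23 to 0.99 for SLC25A17. The cause of the other turns was not tested. Most members rest on few reads, and SLC25A1, among the 6 highest, on at most 32.4 to 52.2 reads.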

Other observations

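The processed pseudogene SLC25A5P5, on chromosome 7 from 32471513 to 32472409, was the only listed pseudogene with a name of this family. It was at 8.13 TPM in the SNHG26 guide library of day 2 and listed at 0 in the other 3. Its span is 897 bases, and 1 read on 1 kb was worth 7.29 TPM in that library, so the value is about that of 1 read. Of the 42 carrier genes, 21 overlapped another listed gene, in each case on the opposite strand. SLC25A20 shared 40643 bases with PRKAR2A-AS1, which was listed at 0 in every library, and SLC25A30 shared 24660 bases with TPT1-AS1, at 0 to 0.491 TPM. SLC25A26, on a span of 254507 bases, was at 0.321 to 0.985 TPM, with day 3 above day 2 in both arms. It was 23rd in the family by TPM and 9th by the upper bound on reads.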
